A study of Mus musculus with 48 samples.

Results

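The 10 genes described here encode the machinery of MHC class I antigen presentation: B2m, the heavy chains H2-K1, H2-D1, H2-T23 and H2-Q7, the transporter subunits Tap1 and Tap2, the loading factor Tapbp, and the immunoproteasome subunits Psmb8 and Psmb9. They were chosen by name, though with earlier results of these data known. All 10 of the 10 were among the 34586 genes of the unique molecular identifier (UMI) matrix. Their UMIs were counted in every mouse, organ and cell type, and mice with collagen-induced arthritis (CIA) were compared with healthy mice. All mice were male DBA1/J mice of 8 to 12 weeks. The 6 CIA mice had been immunised with bovine collagen type II in complete Freund's adjuvant, with a booster in incomplete adjuvant on day 20, and the 4 healthy mice had received phosphate-buffered saline. Among the CIA mice, 3 had mild (S5, S6, S8) and 3 severe arthritis (S1, S2, S3). Sample names carry 2 experiment prefixes: the mild mice and the healthy mice H4, H6 and H7 share the prefix CIA, and the severe mice and the healthy mouse H3 the prefix 2CIA, so severity and experiment cannot be told apart among CIA mice. Adjuvant and collagen came together in every CIA mouse, so that their parts cannot be told apart either. Joint, lung, muscle, skin and spleen cells had been profiled by Seq-Well, a microwell method for single-cell RNA sequencing, in 48 samples. The dissected organ samples had been frozen and thawed before single cells were made from them. The joint had 8 samples (3 healthy, 5 CIA) and each other organ 10 (4 healthy, 6 CIA).

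MHC class I molecules show fragments of a cell's own proteins to CD8+ T cells and to natural killer (NK) cells. The proteasome cuts proteins into peptides, and under interferon its catalytic subunits are replaced by the immunoproteasome subunits Psmb8, Psmb9 and Psmb10. Tap1 and Tap2 form the pump that carries peptides into the endoplasmic reticulum, where Tapbp (tapasin) holds the empty heavy chain at the pump until a peptide is bound. A heavy chain reaches the surface only with B2m, the invariant light chain. H2-K1 and H2-D1 are classical heavy chains, and H2-T23 (Qa-1) and H2-Q7 (Qa-2) are nonclassical ones. Nearly all nucleated cells carry class I, with high levels on leukocytes, and interferons raise most genes of the pathway.

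In the GRCm38 annotation, 9 of the 10 genes lay on chromosome 17, within 2117 kb, and B2m lay on chromosome 2 (chr2:122147686-122153083, plus strand). From the start of the region, the order was Tapbp (chr17:33915899-33929292, plus), H2-K1 (chr17:33996017-34000347, minus), Psmb9 (chr17:34181987-34187764, minus), Tap1 (chr17:34187553-34197225, plus), Psmb8 (chr17:34197721-34201454, plus), Tap2 (chr17:34203527-34216321, plus), H2-D1 (chr17:35262730-35267499, plus), H2-Q7 (chr17:35439155-35443773, plus) and H2-T23 (chr17:36029773-36032855, minus). Psmb9, Tap1, Psmb8 and Tap2 filled 34.3 kb, and the gene models of Psmb9 and Tap1, on opposite strands, overlapped by 212 bases.

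Class I promoters are a textbook case of shared regulatory sequence, and 3 of them are shown. Of the genes compared, B2m, though on another chromosome, varied in level most like H2-K1 + H2-D1 (Pearson's r = 0.78). H2-Q7 was less like them (r = 0.49) and is shown as a nonclassical heavy chain. RefSeq sequences of GRCm38.p6 were found for 9 of the 10 genes, with 2 start sites for H2-K1, of which the one farther upstream is used here. The stretch printed runs from 170 to 11 bases before the start site, on the gene's strand, for H2-K1 (chr17:34000358-34000517, minus), H2-Q7 (chr17:35438985-35439144, plus) and B2m (chr2:122147517-122147676, plus). Capitals mark matches to the motifs searched on both strands of the 250 bases before the start: GGGGAT, any base and CCC (kappaB-like), GAAA, any 2 bases and GAAA (like an interferon-stimulated response element), TGACG (cyclic AMP response element core) and CCAAT, which reads ATTGG when it is on the opposite strand.
H2-K1: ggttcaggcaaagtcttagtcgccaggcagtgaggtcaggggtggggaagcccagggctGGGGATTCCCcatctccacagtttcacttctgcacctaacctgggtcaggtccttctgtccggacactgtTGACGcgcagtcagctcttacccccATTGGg
H2-Q7: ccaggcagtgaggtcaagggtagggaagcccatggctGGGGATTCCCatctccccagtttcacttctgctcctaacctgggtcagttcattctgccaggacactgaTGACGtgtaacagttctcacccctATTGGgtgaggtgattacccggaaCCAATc
B2m: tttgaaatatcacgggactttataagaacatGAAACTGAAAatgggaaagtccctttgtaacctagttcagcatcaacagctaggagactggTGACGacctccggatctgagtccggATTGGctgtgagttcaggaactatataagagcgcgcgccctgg

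The kappaB-like motif was present in 0.231% of 32851 promoters of this length, and H2-K1, H2-D1 and H2-Q7 each held it, at -111, -171 and -133. The interferon-type motif was present in 2.98% of promoters, with matches in B2m at -139 and in H2-T23 at -124. TGACG stood 70 bases after the kappaB-like match in H2-K1 and H2-D1 and 69 bases after it in H2-Q7, and 17.8% of all promoters held it somewhere. CCAAT was found in 33.8% of promoters. A further motif, TTCNNNGAA (like an interferon-gamma activated site), was found in 7.02% of promoters and, among these genes, in Psmb8 at -97. No overlap between marked motifs occurred in the stretches printed. Only exact matches to these fixed patterns were searched. Variant forms of the same elements stay in lower case, so a promoter without a match is not shown to lack the element.

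The matrix held 13240 cells, of which 12096 carried a cell type label of the study (13 types) and a median of 675 UMIs (410 to 6239). Per sample, labelled cells summed to 17748 to 126321 UMIs in lung, 26984 to 238155 in skin, 62796 to 1176647 in joint, 95313 to 862294 in spleen and 33628 to 1645734 in muscle. Of 12041 barcode sequences, 50 occurred in more than 1 library. Of 23 organ and cell type pairs with enough mice, 16 had their own marker genes at the highest level of their organ. The muscle cells labelled myocytes did not: their muscle markers summed to a median of 50.9 CPM (UMIs per 1000000 UMIs of the sum) and their B cell markers to 811 CPM, so these cells are called by their label only. The other 6 were muscle macrophages, neutrophils, T cells and NK cells and spleen dendritic cells and T cells. In 4 of these the B cell markers had a higher summed median than the type's own: muscle NK cells (22.6 CPM for their own and 277 CPM for B cell markers), muscle T cells (158 and 351 CPM), spleen dendritic cells (131 and 509 CPM) and spleen T cells (82.3 and 241 CPM). The lists differ in their number of genes, and cell type names are the study's labels throughout.

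Depth divided the 10 genes into those that could be followed in single cell types and those that could not. Over all labelled cells, H2-D1 had 38419 UMIs, B2m 23776, H2-K1 17621 and Psmb8 3038. Far fewer were counted for H2-T23 (1553), Tapbp (863), H2-Q7 (857), Psmb9 (791), Tap2 (393) and Tap1 (335). DBA1/J mice carry another H2 haplotype than the C57BL/6 reference to which the reads had been aligned, and the heavy chain genes have near-identical relatives in the matrix, such as H2-Q4 (3090 UMIs), Gm8909 (2729), H2-Q2 (1436) and H2-Q6 (649). Values of H2-K1, H2-D1, H2-T23 and H2-Q7 are therefore uncertain as to which copy the reads came from. Counts were summed per mouse, since cells of 1 mouse are not replicates, and levels below are CPM of a mouse's cells of 1 type, given for mice with at least 10 such cells. In sums over a whole organ, fewer cells of a type and less RNA per cell cannot be told apart.

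Class I levels differed widely between cell types and organs, with most cells labelled as muscle leukocytes high and skin Basal III cells low. B2m had its highest medians in muscle: 3160 CPM in cells labelled myocytes (2596 to 3910, n = 3 mice), 3130 CPM in macrophages (1618 to 5202, n = 7) and 2949 CPM in neutrophils (n = 3). Muscle granulocytes were an exception among the muscle leukocytes, at 1351 CPM (1231 to 1937, n = 3). The lowest B2m medians were 898 CPM in joint fibroblasts (526 to 2241, n = 6), 877 CPM in joint granulocytes (704 to 1930, n = 5) and 520 CPM in skin Basal III cells, a keratinocyte population (169 to 1481, n = 10). H2-K1 ran from 3716 CPM in the muscle cells labelled myocytes to 452 CPM in Basal III cells. H2-D1 ran between the same cells, from 7024 CPM (6929 to 7122, n = 3) to 878 CPM (512 to 1392, n = 10). In the order of medians over the 23 organ and cell type pairs, all 22 pairs of neighbours had overlapping ranges for every gene except H2-D1, where 21 did; the exception was the step from the cells labelled myocytes to muscle macrophages (5171 CPM, 1991 to 6463, n = 7). Apart from that step, neighbours in the order did not differ beyond the spread between mice. The muscle cells labelled myocytes and neutrophils came only from H6, H7 and S6, with 1492 of the 1589 labelled myocytes from S6. Muscle macrophages and T cells also came from H4 and S3, whose muscle values were low. Cell type and mouse can therefore not be told apart in that step and in the muscle ranks. These levels are a description, since the labels came from clustering on all genes.

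**Figure D1:**
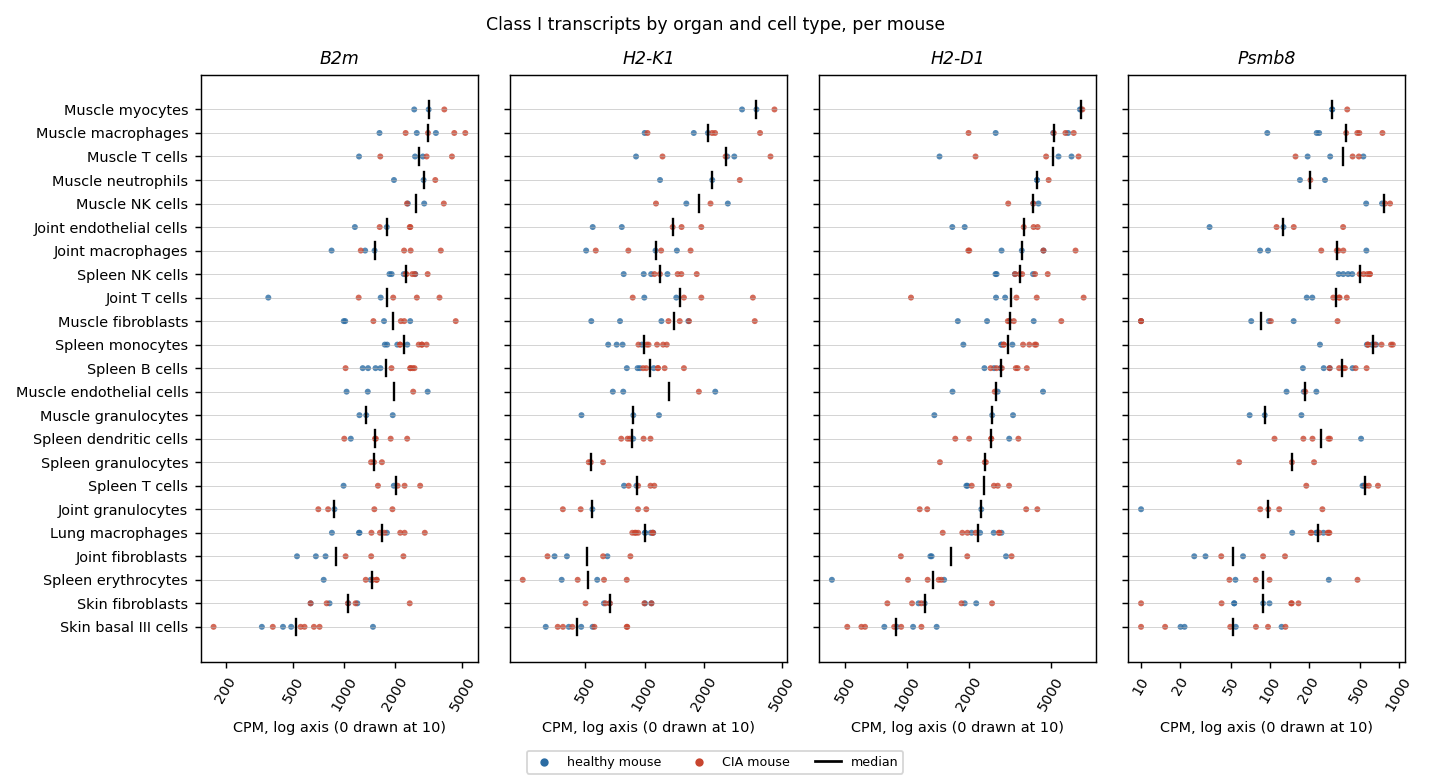
Levels of B2m, H2-K1, H2-D1 and Psmb8 in CPM (log axis, 0 drawn at 10) in the 23 organ and cell type pairs with at least 3 mice, with 1 point per mouse (healthy blue, CIA red) and the median as a black line. Rows follow the H2-D1 median, from 7024 CPM in the muscle cells labelled myocytes to 878 CPM in skin Basal III cells, and Psmb8 follows another order.

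The immunoproteasome and the nonclassical heavy chains had another order. Psmb8 was highest in cells labelled muscle NK cells (median 764 CPM, 560 to 858, n = 4), spleen monocytes (637 CPM, 245 to 901, n = 10), spleen T cells (545 CPM, 192 to 691, n = 6) and spleen NK cells (498 CPM, 343 to 599, n = 9). It was lowest in joint fibroblasts (51.9 CPM, 25.9 to 131, n = 6) and Basal III cells (51.8 CPM, 0 to 132, n = 10), with ranges that lay below that of muscle NK cells. Psmb9 was highest in spleen monocytes, at 250 CPM (38.7 to 408, n = 10). H2-T23, which NK cell receptors read, was highest in cells labelled NK cells in muscle, whose own markers were low (376 CPM, 233 to 542, n = 4), and in NK cells of the spleen (233 CPM, 133 to 543, n = 9), and H2-Q7 had the same first pair (175 CPM, n = 4, and 135 CPM, n = 9). Tap1 and Tap2 were both highest in cells labelled spleen dendritic cells, at medians of 81.3 CPM and 72.6 CPM (n = 6), where Tap1 rested on 23 UMIs and Tap2 on 12. Tapbp had no such order: its highest median was in muscle endothelial cells (176 CPM, 0 to 275, n = 4), and joint fibroblasts, near the bottom for Psmb8, stood high (101 CPM, 43.7 to 181, n = 6).

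The balance between the classical heavy chains varied by cell type. H2-K1 made up a median of 19.6% of H2-K1 + H2-D1 UMIs in joint granulocytes (19.1% to 27.4%, n = 5), 21.95% in joint macrophages (n = 7) and 22.3% in joint fibroblasts (17.6% to 25.6%, n = 6). Other joint cells were higher, at 27.4% in endothelial cells (n = 5) and 32.2% in T cells (n = 6), and spleen granulocytes were at 20.3% (n = 3). In skin Basal III cells the median was 37.6% (26.1% to 48.4%, n = 10), and in muscle T cells it was 35.9% (31.2% to 39.1%, n = 6). Every muscle T cell value lay above every joint fibroblast value. Both heavy chains have near-identical relatives, and the part of read assignment in these shares was not tested.

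**Figure D2:**
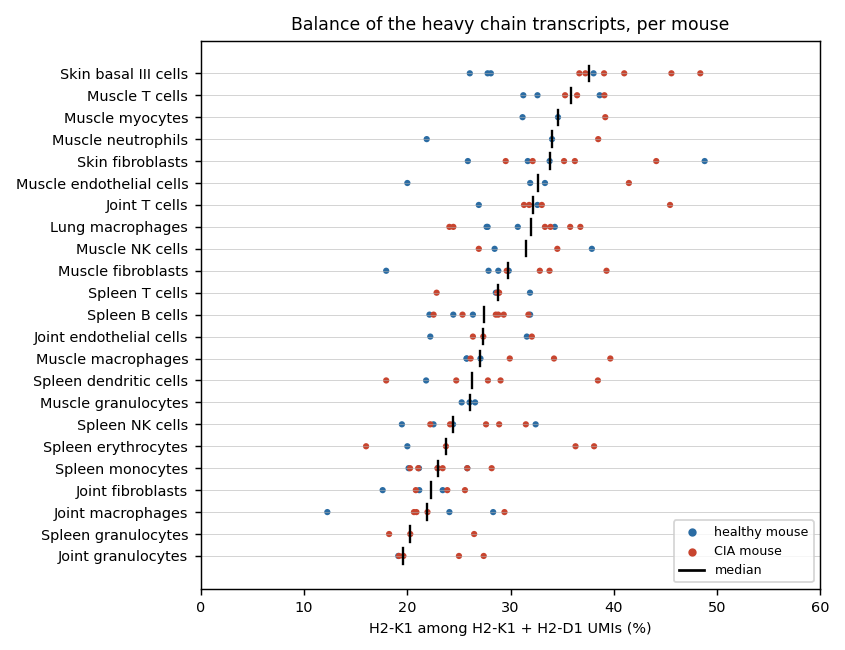
H2-K1 UMIs as a percentage of H2-K1 + H2-D1 UMIs in each organ and cell type pair, 1 point per mouse. Granulocytes of joint and spleen and macrophages and fibroblasts of the joint lie at the low end, with medians of 19.6% to 22.3%, and Basal III cells at the high end, with a median of 37.6%.

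Across 160 sums of 1 cell type in 1 mouse and organ, from 10 mice, the gene whose log2 level was most like that of H2-K1 + H2-D1 was B2m (Pearson's r = 0.78, among 1445 genes with a mean of at least 100 CPM). Next were the heavy chain H2-Q4 (r = 0.66), the proteoglycan core protein Srgn of leukocyte granules (r = 0.62), the class II invariant chain Cd74 (r = 0.61) and the heavy chain H2-K2 (r = 0.61). The median r of all genes was 0.039. Psmb8 (r = 0.46) and H2-T23 (r = 0.41) ranked lower, at 47 and 77. The sums share mice, libraries and depth, and H2-Q4 and H2-K2 are close relatives of the heavy chains.

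CIA was compared with healthy mice in 16 sets of per-mouse sums: 11 cell types within an organ and the 5 whole organs. The question was whether class I presentation differed with disease, in the joint and in organs without arthritis. No member passed an adjusted p of 0.05 by the quasi-likelihood test of edgeR in any of the 16 sets, and DESeq2 also gave 0. Low counts removed many members: 72 of the 160 gene and set pairs passed the filter, between 3 and 9 members a set. Psmb9 over all muscle cells and Psmb8 in muscle macrophages passed it only through their CIA mice. Their place in the counts that follow is therefore partly set by the filter, and the other pairs were not checked for this. Of these 72, 62 had a higher fitted level in CIA (60 by DESeq2 and 59 with plain library sizes), whereas 48.9% to 55.3% of all genes fitted did so in each set. At an unadjusted p under 0.05 there were 10, all higher in CIA, 6 of them B2m. Between 2.61% and 20.9% of all genes passed that threshold in each set. In 7 of the 72, every CIA mouse lay above every healthy mouse, and in 0 every CIA mouse lay below. Between 0.479% and 18.1% of all genes in each set had every CIA mouse above, and the share with every CIA mouse below was not counted. The sets of 1 organ share mice and those of whole organs hold the cells of its types, so these counts are not independent.

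**Figure D3:**
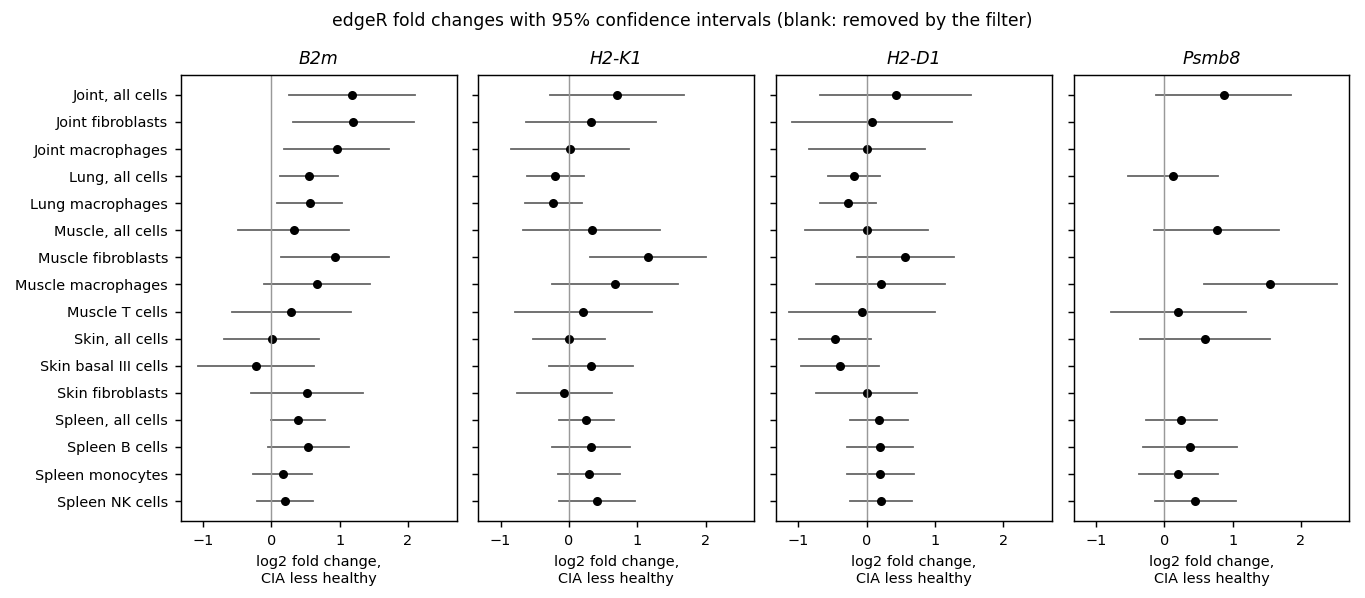
Fitted log2 fold change (CIA less healthy) with its 95% interval for B2m, H2-K1, H2-D1 and Psmb8 in the 16 sets, blank where the count filter removed the gene. The B2m points of the joint lie near 1, the H2-D1 points lie around 0, and none of these genes passed the adjusted threshold.

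Over whole organs, the fitted B2m difference was largest in the joint. Over all joint cells B2m was at 908, 677 and 918 CPM in the healthy mice H3, H4 and H7 and at 1792, 1295, 2346, 2054 and 924 CPM in the CIA mice S1, S3, S5, S6 and S8. The groups did not overlap, although S8 lay close to the healthy mice. The log2 fold change was 1.18 ± 0.43 (SE; adjusted p = 0.298). The other 5 members fitted were also higher in CIA, by 0.21 (Tapbp, -0.04 with plain library sizes) to 0.92 (H2-T23) on the log2 scale, with overlapping groups and adjusted p of 0.515 to 0.901. The median of the 6 was 0.79, against 0.023 for all 2364 genes. Of those genes, 0.127% passed the adjusted threshold and 2.75% had every CIA mouse above every healthy mouse. Joint cell types were in other proportions: fibroblasts were 42.2% to 52.8% of cells in healthy mice and 4.82% to 44.4% in CIA mice, and granulocytes 3.14% to 13.9% and 14.0% to 54.2%. Without granulocytes, neutrophils and erythrocytes, the B2m log2 fold change was 1.05 (adjusted p = 0.443).

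In joint fibroblasts B2m was at 681, 526 and 776 CPM in the healthy mice H3, H4 and H7 and at 1445, 1020 and 2241 CPM in the CIA mice S1, S3 and S5. Again no CIA mouse reached down to the healthy range, at a log2 fold change of 1.20 ± 0.39 (SE; adjusted p = 0.180, n = 3 and 3). Here 18.1% of the 1014 genes had every CIA mouse above every healthy mouse and 1.68% passed the adjusted threshold. Of the members, 0 of 3 passed. The heavy chains were fitted at 0.33 ± 0.43 (H2-K1) and 0.08 ± 0.52 (H2-D1) on the log2 scale, and B2m was not tested against them. H2-D1, for example, was at 1298, 1316 and 3028 CPM in healthy mice and at 1962, 933 and 3223 CPM in CIA mice. Granulocyte markers in these fibroblast sums, 4 genes, were at 1393 to 5900 CPM in healthy and 13231 to 29491 CPM in CIA mice, with 0 of the 4 at 0 in either group, and their part in the B2m values was not tested.

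In joint macrophages B2m was at 1331, 1513 and 843 CPM in the healthy mice H3, H4 and H7 and at 2472, 2261, 3728 and 1254 CPM in the CIA mice S1, S3, S5 and S8. All CIA mice but S8 lay above the healthy range (log2 fold change 0.95 ± 0.35 SE, adjusted p = 0.145). H2-K1 and H2-D1 had fitted log2 fold changes of 0.02 ± 0.39 and 0.00 ± 0.38, and 0 of 3 members passed the adjusted threshold, which 10.3% of 273 genes passed. In this set 9.89% of genes had every CIA mouse above every healthy mouse. The granulocyte markers stood at 924 to 8229 CPM in healthy and 33192 to 59262 CPM in CIA mice.

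**Figure D4:**
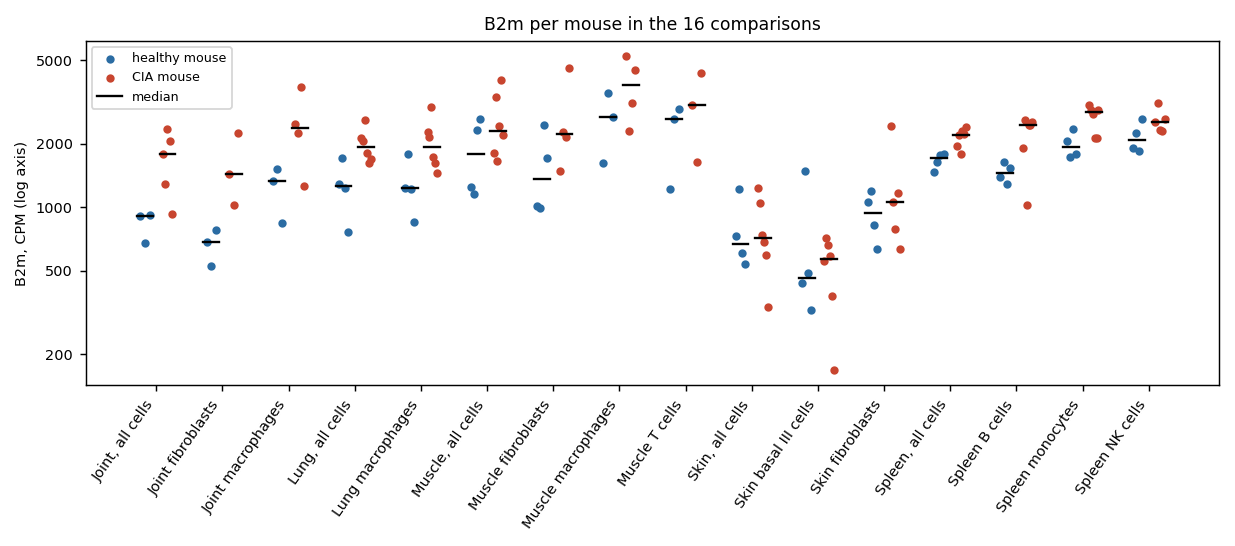
B2m in CPM (log axis) per mouse in each of the 16 sets, healthy beside CIA mice, with the median as a bar. The groups are apart in the joint, in joint fibroblasts and in the whole spleen, and overlap elsewhere.

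No member passed in the lung, where B2m had the largest fitted difference. Over all lung cells B2m ran from 760 to 1718 CPM in the healthy mice (H7 760, H6 1239, H3 1293, H4 1718), and in the 6 CIA mice the lowest value was 1629 CPM, the median 1931 CPM and the highest 2583 CPM. The healthy mouse H4 lay within the CIA range. The log2 fold change was 0.55 ± 0.20 (SE; adjusted p = 0.148). H2-K1 and H2-D1 were fitted at -0.20 ± 0.20 and -0.19 ± 0.18, and Psmb8 at 0.13 ± 0.32. None of these 4 passed, while 4.96% of 686 genes did, and 3.06% had every CIA mouse above every healthy mouse. In lung macrophages B2m gave 0.56 ± 0.23 (adjusted p = 0.182), with 847 to 1790 CPM in healthy mice and 1450 to 2997 CPM in CIA mice. Within the experiment prefixed CIA alone it was at 0.28 (adjusted p = 0.802). H2-K1 was at 1003 to 1107 CPM in the healthy and 866 to 1104 CPM in the CIA mice (-0.23 ± 0.20). H2-D1 was fitted at -0.28 ± 0.19. The backgrounds were 6.51% of 538 genes for the adjusted threshold and 3.53% for no overlap. Granulocyte markers in lung macrophages were at 356 to 545 CPM in healthy and 580 to 14700 CPM in CIA mice, and their part was not tested.

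Muscle held the 2 largest fold changes of immunoproteasome subunits. Psmb9 over all muscle cells was at 17.9, 18.9, 15.3 and 30.2 CPM in the healthy mice H3, H4, H6 and H7, from 1, 3, 4 and 11 UMIs. In the CIA mice it was at 47.8 CPM (S3, 6 UMIs), 51.5 CPM (S5), 62.6 CPM (S6), 81.7 CPM (S2), 132 CPM (S8) and 149 CPM (S1, 5 UMIs). Every CIA mouse was above every healthy mouse, which held for 0.660% of 3634 genes, and the log2 fold change was 1.72 ± 0.48 (SE; adjusted p = 0.368). Psmb9 reached the level of the count filter in every CIA mouse and in no healthy mouse, so it entered the fit only through the CIA mice. Its direction and separation are therefore no support of their own. Of all genes 0.0550% passed the adjusted threshold, and of the members 0 of 9. Granulocyte markers ran the other way, with 33451 to 99003 CPM in healthy and 2609 to 26482 CPM in CIA mice. Without granulocytes, neutrophils and erythrocytes Psmb9 had a log2 fold change of 1.67 (adjusted p = 0.999), and without the cells labelled myocytes 2.03 (adjusted p = 0.535). B2m, H2-K1 and H2-D1 over all muscle cells were at 0.33 ± 0.38, 0.33 ± 0.47 and 0.00 ± 0.42.

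In muscle macrophages Psmb8 had the largest fitted fold change of the members, without passing the test. Its level was 231, 95.5 and 242 CPM in the healthy mice H4, H6 and H7, from 3, 2 and 8 UMIs, and 749, 478, 391 and 496 CPM in the CIA mice S2, S3, S5 and S6. The groups were apart, with a log2 fold change of 1.55 ± 0.44 (SE; adjusted p = 0.672), against backgrounds of 3.30% of 545 genes without overlap and 0.183% past the adjusted threshold. Every CIA mouse and no healthy mouse reached the level of the count filter, so Psmb8 entered this fit only through the CIA mice. Its direction and separation are therefore no support of their own. B2m (0.66 ± 0.35), H2-K1 (0.67 ± 0.42) and H2-D1 (0.21 ± 0.43) overlapped between the groups. The macrophage markers of these sums, 10 genes, were lower in every CIA mouse than in every healthy mouse, at 16432 to 28893 CPM in healthy and 8991 to 16004 CPM in CIA mice, and their part was not tested. In muscle T cells none of the 6 members fitted had separate groups (9.20% of 1957 genes did, and 0.0511% passed the adjusted threshold). There Psmb8 was at 532, 294 and 196 CPM in H4, H6 and H7 and at 491, 158 and 439 CPM in S2, S3 and S6. Psmb9, under the count filter, was at 0, 21.8 and 21.1 CPM in these healthy mice (0, 2 and 3 UMIs) and at 69.4, 52.8 and 114 CPM in the CIA mice (28, 5 and 25 UMIs). The 9.20% covers only genes that passed the filter, and the share among the others was not counted, so nothing is concluded from Psmb9. Erythrocyte markers in the T cells, 8 genes, were at 9912 to 18155 CPM in healthy and 308 to 1298 CPM in CIA mice.

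In muscle fibroblasts no member passed, and the groups overlapped for H2-K1 and B2m. H2-K1 was at 750, 536, 1671 and 1219 CPM in H3, H4, H6 and H7 and at 1324, 1511, 1685 and 3641 CPM in S1, S2, S5 and S6 (log2 fold change 1.16 ± 0.38 SE, adjusted p = 0.347). B2m was at 1015, 995, 2457 and 1721 CPM and at 1489, 2266, 2164 and 4567 CPM in the same mice (0.93 ± 0.36, adjusted p = 0.446). The mouse S6 was the highest for both, and without it H2-K1 was at 0.80 (adjusted p = 0.565) and B2m at 0.61 (adjusted p = 0.674). H2-D1 was fitted at 0.57 ± 0.32. The median of the 3 was 0.93, against 0.0063 for all 173 genes, of which 0% passed the adjusted threshold and 2.31% had no overlap. Psmb9, H2-Q7 and Tap2, under the count filter, had 0 UMIs in all 4 healthy mice and 22, 17 and 10 UMIs in the CIA mice. With UMIs pooled over mice and a floor of 3 UMIs over the healthy group, the lower bounds of the ratio were 1.37, 1.06 and 0.62. Pooling leaves out the spread between mice, so these bounds are not a test. The backgrounds above cover only genes that passed the filter, and how many of the others had 0 UMIs in the healthy group was not counted.

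The muscle libraries differed in class I before any comparison of groups. In T cells B2m was at 1225 CPM in H4 and 1635 CPM in S3 but at 2625 to 4338 CPM in H6, H7, S2 and S6. In macrophages B2m was at 1618 CPM in H4 and 2309 CPM in S3, below all others (2687 to 5202 CPM). Summed over B2m, H2-K1 and H2-D1, no cell type of H3, H4 or S3 exceeded 5335 CPM, while T cells, macrophages and fibroblasts of S6 were at 15539, 14244 and 13833 CPM. Red cells had been lysed in the muscle of H6, H7, S2, S3, S6 and S8 and not in the others. With lysis as a term, Psmb9 over all muscle was at 1.70, Psmb8 in macrophages at 1.51 and H2-K1 in fibroblasts at 1.15, none past the adjusted threshold.

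**Figure D5:**
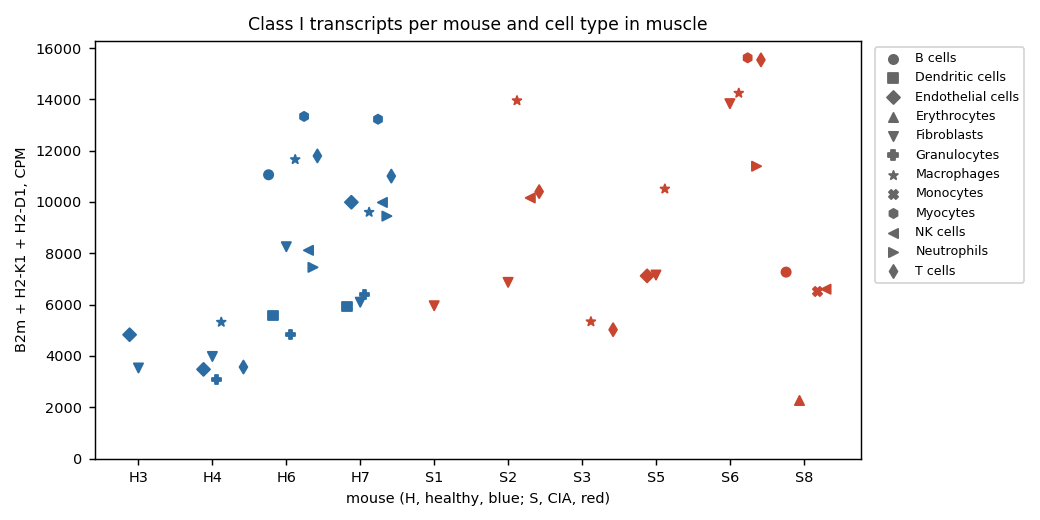
Summed CPM of B2m, H2-K1 and H2-D1 in muscle, by mouse (healthy blue, CIA red), with 1 symbol per cell type of at least 10 cells. The cell types of 1 mouse are low together in H3, H4 and S3 and high together in S6, in which T cells, macrophages and fibroblasts all exceed the same types of every other mouse.

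In skin the groups overlapped for every member fitted, and none passed the test. Over all skin cells B2m was at 539 to 1220 CPM in the 4 healthy mice, and in the 6 CIA mice the lowest value was 335 CPM, the median 711 CPM and the highest 1234 CPM (log2 fold change 0.00 ± 0.33, 95% interval -0.70 to 0.70). H2-K1 was fitted at 0.00 ± 0.25, Psmb8 at 0.60 ± 0.45 and H2-D1 at -0.46 ± 0.25. In Basal III cells B2m was at -0.23 ± 0.40, H2-K1 at 0.32 ± 0.29 and H2-D1 at -0.39 ± 0.27. In skin fibroblasts B2m was at 0.52 ± 0.38, H2-K1 at -0.07 ± 0.32 and H2-D1 at 0.00 ± 0.34. No gene passed the adjusted threshold in these 3 sets (0%), and 0.917%, 1.02% and 1.15% of genes had every CIA mouse above every healthy mouse in all skin, Basal III cells and fibroblasts. Of all skin genes 160 were under an unadjusted p of 0.05, and 0 of the 4 members were.

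In the spleen all 8 members fitted over the whole organ had a higher fitted level in CIA, by 0.18 (H2-D1) to 0.85 (Tapbp), with a median of 0.32 against -0.0088 for 2927 genes. B2m was at 1472, 1644, 1773 and 1787 CPM in H3, H4, H6 and H7, and in the 6 CIA mice the lowest value was 1795 CPM, the median 2206 CPM and the highest 2406 CPM. No overlap remained, but the lowest CIA mouse (S3, 1795 CPM) lay close to the highest healthy one (H7, 1787 CPM) (0.39 ± 0.18, adjusted p = 0.773). H2-Q7 was at 53.9, 68.1, 73.4 and 82.1 CPM in the healthy mice and at 93.0 to 157 CPM in the CIA mice (0.77 ± 0.27, adjusted p = 0.481). Every CIA mouse was above every healthy mouse for B2m and H2-Q7, as for 1.09% of all genes, and 0.137% of genes passed the adjusted threshold. Composition moved with these values: granulocytes were 0% to 2.42% of cells in healthy and 1.67% to 16.1% in CIA mice, and macrophage markers were at 1895 to 2591 CPM and 3133 to 7151 CPM. Granulocyte markers were at 3389 to 22237 CPM and 19666 to 130943 CPM. Without granulocytes, neutrophils and erythrocytes H2-Q7 was at 0.87 (adjusted p = 0.570), and the part of the macrophage markers was not tested. Psmb9 overlapped, with 31.5 to 124 CPM in healthy and 102 to 196 CPM in CIA mice (0.77 ± 0.38).

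In the spleen cell types, too, no member passed. In NK cells Psmb8 was at 343, 405, 436 and 372 CPM in H3, H4, H6 and H7 and at 599, 572, 596, 498 and 535 CPM in S1, S2, S5, S6 and S8. The groups were apart, which held for 0.950% of 421 genes, and the log2 fold change was 0.46 ± 0.27 (SE; adjusted p = 1.00). No gene passed in NK cells (0%). In B cells all 5 members fitted were higher in CIA, by 0.20 (H2-D1) to 0.63 (H2-T23), with overlap in each. The backgrounds there were 0% and 0.479% of 1252 genes. In monocytes the 4 members were at 0.17 (B2m) to 0.29 (H2-K1), each with an SE of 0.20 to 0.26, against 6.36% of 456 genes past the adjusted threshold and 7.68% without overlap. Tapbp, under the count filter in monocytes, was at 51.5, 63.6, 38.7 and 0 CPM in H3, H4, H6 and H7 (8 UMIs in all) and at 96.5 to 386 CPM in the 6 CIA mice (49 UMIs). The 7.68% covers only genes that passed the filter. The share without overlap among genes under it was not counted, so nothing is concluded from Tapbp. Granulocyte markers were higher in every CIA mouse than in every healthy mouse in all 3 types, for example at 722 to 1021 CPM and 2679 to 24005 CPM in monocytes, and their part was not tested.

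Macrophages were fitted in 3 organs, so the CIA difference could be compared between organs. The lung difference less the joint difference was -0.44 ± 0.41 for B2m, -0.32 ± 0.40 for H2-K1, -0.37 ± 0.41 for H2-D1 and -0.42 ± 0.63 for Psmb8 (log2, SE, adjusted p of 0.744 to 0.855). The lung difference less the muscle difference was -1.43 ± 0.52 for Psmb8 (adjusted p = 0.211) and -0.87 ± 0.43 for H2-K1 (adjusted p = 0.387). It was -0.06 ± 0.42 for B2m and -0.46 ± 0.45 for H2-D1. In both tests 0 of these 4 members passed the adjusted threshold, which 0.127% of 788 and 0.496% of 807 genes passed. Each organ's macrophages came from the same mice, and with the mouse as a block, over 7 paired mice, 0 members passed in both, with Psmb8 at -1.54 (adjusted p = 0.479) in the fit of lung less muscle.

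Psmb8, Psmb9 and Psmb10 each replace a constitutive subunit, Psmb5, Psmb6 and Psmb7, in newly built proteasomes, so the induced share of each pair was computed per mouse where both groups had enough UMIs. In the spleen Psmb9 made up 37.4% ± 5.9 (SD, n = 4) of Psmb9 + Psmb6 UMIs in healthy mice and 50.6% ± 7.3 (SD, n = 6) in CIA mice. This was a difference of 13.2 percentage points (two-sided exact permutation test, p = 0.0286, adjusted p = 0.143 over 5 shares). The ranges, 30.0% to 44.3% and 37.9% to 57.9%, overlapped. In the joint Psmb8 was 51.7% ± 18.0 (SD, n = 3) of Psmb8 + Psmb5 in healthy and 71.6% ± 11.4 (SD, n = 5) in CIA mice (exact permutation p = 0.107, adjusted p = 0.268). In the spleen the Psmb8 share was 86.9% ± 2.5 and 85.0% ± 3.2, and the Psmb10 share 72.0% ± 7.2 and 70.9% ± 11.5. The Psmb8 share of muscle T cells was 71.3% ± 11.9 and 74.2% ± 12.5 (n = 3 and 3), where the smallest p the test allows is 0.1. The joint and spleen shares are over whole organs, whose cell types were in other proportions in CIA. Fibroblasts, for example, were a median of 50.9% of joint cells in healthy and 16.8% in CIA mice. The part of composition in these shares was not tested.

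The other genes of the pathway gave no call either. Over the 16 sets, 27 pairs of a further class I heavy chain and a set were fitted (20 higher in CIA), 31 of loading and trimming factors (19 higher), 21 of the proteasome activator and Psmb10 (17 higher), 17 of constitutive subunits (6 higher) and 17 of regulators (10 higher), with 0 past the adjusted threshold in each. At an unadjusted p under 0.05 were 0, 4, 1, 0 and 1 of these. The 4 were Calr, the chaperone calreticulin, higher in CIA in joint fibroblasts and muscle macrophages, and Pdia3, the oxidoreductase of the loading complex, lower in all lung cells (-0.65) and lung macrophages (-0.81). Calr was at 104 to 142 CPM in healthy and 219 to 351 CPM in CIA mice in joint fibroblasts (fitted log2 fold change 1.16 ± 0.42, adjusted p = 0.204). H2-Q4, the most counted of the other heavy chains, was at 0.51 over all joint cells and -0.66 over all skin cells. Irf1, an interferon-induced activator of class I promoters, was at -0.32 in the joint and -0.02 in the spleen.

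The class II genes, read here as the other arm of presentation, were lower in CIA where they passed. Of 54 pairs fitted, 9 were lower in CIA past the adjusted threshold and 0 higher: H2-Aa, H2-Ab1 and Cd74 in joint macrophages, in all lung cells and in lung macrophages, sets in which 10.3%, 4.96% and 6.51% of all genes passed. Over all 54 pairs 20 were higher in CIA, and at an unadjusted p under 0.05 there were 19 lower and 2 higher. None passed over all joint, skin or spleen cells, but 3 were lower at an unadjusted p under 0.05 in each (medians -1.74, -1.89 and -0.57). In muscle none passed and the fitted direction was mostly the opposite. There 6 of 6 were higher over all cells (median 0.97), 3 of 3 in fibroblasts (1.65), 5 of 5 in macrophages (1.20) and 4 of 6 in T cells (0.10). Of these, 1 in fibroblasts and 1 in macrophages were at an unadjusted p under 0.05. In joint macrophages H2-Aa, a class II alpha chain, was at 3727 to 5798 CPM in healthy mice and at 188 to 1564 CPM in CIA mice (log2 fold change -2.17 ± 0.43, adjusted p = 0.0130). In lung macrophages Cd74 fell by 1.21 on the log2 scale (adjusted p = 0.00322). In the same sets B2m was fitted at 0.95 and 0.56. These 9 are 3 genes of 1 complex in overlapping cells, so they are not independent.

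Among the CIA mice, B2m was given by severity as values only, since severity went with experiment. Over all lung cells it was at 1629 to 1805 CPM in mild and 2059 to 2583 CPM in severe mice. Over all skin cells it was at 335 to 687 CPM in mild and 735 to 1234 CPM in severe mice. The spleen had the opposite order, with 2219 to 2406 CPM in mild and 1795 to 2192 CPM in severe mice. In the joint (924 to 2346 CPM in mild, 1295 to 1792 CPM in severe mice) and in muscle (2199 to 4015 and 1664 to 3323 CPM) the ranges overlapped. The experiment prefixed CIA held the mild CIA mice and 3 of the 4 healthy mice, of which the joint had 2 (H4 and H7). Within it, the log2 fold change of B2m (CIA less healthy) was 1.38 over all joint cells, 0.46 over all lung cells, -0.60 over all skin cells and 0.40 over all spleen cells. None was past the adjusted threshold, and the muscle value of this refit is not given. The experiment prefixed 2CIA held 1 healthy mouse and gave no test of its own.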

How the data were processed

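Per the study's methods, the authors prepared Seq-Well libraries, aligned reads with STAR to GRCm38 and counted UMIs per gene with Drop-seq tools. The submitters' processing notes name STAR, Picard and bcl2fastq without versions, and GRCh38 and mm9 as builds. The deposited values are whole-number UMI counts per gene and cell, and cell type labels were deposited beside them. Doublets were not called here. Counts were summed per mouse, organ and label, in the 11 organ and cell type pairs with at least 3 mice of each group having at least 10 cells, and over each of the 5 organs. Each set was fitted in edgeR 4.0.16 (R 4.3.3; TMM, default count filter, quasi-likelihood test, Benjamini-Hochberg over all genes, threshold 0.05). Samples with fewer cells were left out. CPM are UMIs per 1000000 UMIs of the sum. The script was tested on simulated data. Alternatives were DESeq2 1.42.0, other scalings and filters, experiment or red cell lysis as a term, and each mouse left out. Shares were compared where every mouse had at least 10 UMIs of the pair, by two-sided exact permutation tests (scipy 1.17.1). For likeness, genes of at least 100 CPM on average were compared on log2(CPM + 10). Organs of a mouse pair the samples, since they come from the same animal. All class I members were named, with genes of 6 fixed pathway lists. Of these, the most counted, those past the threshold and a few of unadjusted p under 0.05 are given, the last after their values were seen. Members and lists were chosen with earlier results of these data known.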

Additional observations from a re-analysis of the deposited data

Results flagged for a closer look

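In 4 of 113 groups of 4 to 6 mice, 1 mouse stood apart from the others by Dixon's test, which chance alone gives in about 1 group in 20. H2-T23 over all muscle cells was at 37.8 CPM in the healthy mouse H4 (6 UMIs), and the nearest healthy mouse was at 114 CPM. In muscle fibroblasts the CIA mouse S6 was at 3641 CPM for H2-K1 (the next CIA mouse was at 1685 CPM) and at 5625 CPM for H2-D1 (the next was at 3304 CPM). B2m in skin Basal III cells was at 1481 CPM in the healthy mouse H4 (36 UMIs), with the nearest at 486 CPM.

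Cells without a cell type label, 1144 in all, entered no comparison. In the joint, the 10 members together were at 3442 to 12417 CPM in the unlabelled cells of the 3 CIA mice with at least 10 such cells, above the 2986 CPM of the only healthy mouse with as many, so this difference was not tested. The healthy mice H4 (9 cells) and H7 (3 cells) were at 3832 and 4673 CPM, and the CIA mice S6 (4 cells) and S8 (7 cells) at 5268 and 1883 CPM. With these mice the groups overlapped. In the spleen the same sum was at 4567 to 7032 CPM in 4 healthy and 5258 to 8096 CPM in 6 CIA mice.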

How the results depend on the processing

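Of 277 refits of the counts, 276 gave 0 members past the adjusted threshold by the tool used. The exception was joint fibroblasts without the CIA mouse S3, where 1 member passed, B2m (log2 fold change 1.47, adjusted p = 0.0491), among 43 calls in all; over that set's 12 alternatives its adjusted p ran from 0.0491 to 0.440. The 10 fold changes at an unadjusted p under 0.05 kept their direction in all of 152 alternatives. Among them were Psmb9 over all muscle cells and Psmb8 in muscle macrophages, which had passed the count filter only through the CIA mice. The mouse as a replicate block in the paired fits of lung less joint and lung less muscle macrophages gave 0 members each. When 1 mouse at a time was left out, the induced share of Psmb8 in muscle T cells (CIA less healthy) ran from -2.97 to 10.0 percentage points, at -2.97 without the healthy mouse H7 and -1.72 without the CIA mouse S6. That of Psmb10 in the spleen ran from -4.45 to 2.52, at 2.39 without the healthy mouse H3 and 2.52 without the CIA mouse S3. Psmb9 in the spleen ran from 10.7 to 15.7 and Psmb8 in the joint from 13.3 to 30.2. Among the alternatives, plain library sizes moved the median of all genes to between -0.18 and 0.35 and DESeq2 to between -0.34 and 0.59. The sign of 5 and 4 of the 72 member fold changes then turned, none larger than 0.21 in size. With every gene of at least 1 count fitted, 126 of 160 member fold changes less the median shift were positive. A minimum of 20 cells was not run, since 7 pairs kept the same mice and 4 had too few. The cause of these differences was not tested. Depth limited the rarer members: Tap1 passed the count filter in 0 of 16 sets, Tap2 in 1 and Psmb9 in 2.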

Other observations

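The share of H2-K1 among H2-K1 + H2-D1 UMIs was also read by group, after its values had been seen. In skin Basal III cells it was at 26.1% to 38.0% (median 27.9%) in the 4 healthy mice and 36.7% to 48.4% (median 40.0%) in the 6 CIA mice. Its median was higher in CIA in 10 of the 11 cell types compared, by 1.14 to 12.1 percentage points, and lower in joint macrophages (24.1% and 21.4%). The groups overlapped in all 11. The cell types share mice, and no test was run. The part of reads shared with near-identical heavy chain genes was not tested.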
